A study of Homo sapiens with 2 samples.

Results

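The mRNAs of mitochondrial ribosomal proteins were compared between the human glioblastoma line A172 and 1 clone derived from it by selection with temozolomide (TMZ), an alkylating drug used against this tumour. The members were taken from the deposited table by name, as genes called MRPL or MRPS followed by a digit, with names of pseudogenes left out. They numbered 78 of the 15603 genes listed, 49 MRPL genes named for the large subunit and 29 MRPS genes named for the small one. GENCODE release 29 holds 78 protein-coding genes with such names. The 6 pseudogenes left out had at most 2.25 FPKM.

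There were 2 groups with 1 library each. The parental group was A172 cells kept without TMZ. The resistant group was the clone labelled A172-r#6, kept with TMZ, so clone, selection and drug exposure cannot be told apart. The resistant group was 1 clone with no second clone to compare. RNA from both cultures was extracted with Trizol and sequenced after a stranded mRNA library preparation. Each value below therefore comes from 1 library, no difference has a replicate check, and no p-value was computed. Levels are given as FPKM, which divides the fragments of a gene by its transcript length and by library size, and the depth of each library is unknown. A lower level can mean less RNA per cell or fewer cells that make it, which bulk RNA cannot tell apart.

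Mitochondria translate a handful of respiratory chain proteins from their own genome, on ribosomes of their own. The RNA of these ribosomes comes from mitochondrial DNA, while all their proteins are encoded in the nucleus, made in the cytosol and imported. Some of these proteins have counterparts in bacterial ribosomes and others occur only in mitochondria. The large subunit joins amino acids, and the small subunit reads the messenger RNA.

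The libraries summed to 299594 FPKM for the parental culture and to 323932 for the resistant one. The fold of a gene is log2 of (resistant FPKM + 1) over (parental FPKM + 1), and the 13937 genes that reached 1 FPKM in at least 1 library were compared. All 78 members passed this filter, none of them through only 1 library. A gene was called when its fold reached 2, a log2 fold of 1 in size. Over all compared genes the median log2 fold was 0.04, and 53.3% lay above 0. Of the glioma markers listed for this check, VIM had 632 FPKM in the parental library against 804 in the resistant one, CD44 83.1 and 161, OLIG2 1.43 and 3.42, NES 33.7 and 5.08, and SOX2 2.23 and 0.253. The astrocyte markers GFAP and S100B were not among the listed genes. Of 8 markers of blood, vessel, epithelial and other neural cells 4 were listed, at 1.83 FPKM or less.

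Most mitochondrial ribosomal protein mRNAs were slightly more abundant in the resistant library. Of the 78 members 56 had a positive log2 fold, which is 71.8% beside the 53.3% of all compared genes, and 22 had a negative one, where 46.7% of all compared genes did. Their median was 0.16, with quartiles of -0.12 and 0.34. None was called higher, where 4.59% of all compared genes were. MRPS6 and MRPS21 were called lower, 2.56% of the members beside 3.82% of all compared genes, a share near the background. With a pseudocount of 10 only MRPS6 was called lower, 1 of 78, beside 0.42% of all compared genes. At the lower threshold of 1.5-fold, 10 members were higher and 4 lower, and 64 lay between. The shares of all compared genes at that threshold were 14.5% higher and 12% lower. Folds were narrower among the members than over all genes, with an SD of 0.40 and 0.60 and an interquartile range of 0.46 and 0.68. With a pseudocount of 10 this turned, with an interquartile range of 0.32 for the members and 0.30 over all genes. The members' levels lay between 3.08 and 115 FPKM, and folds of genes at lower levels enter the wider spread of all genes.

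**Figure D1:**
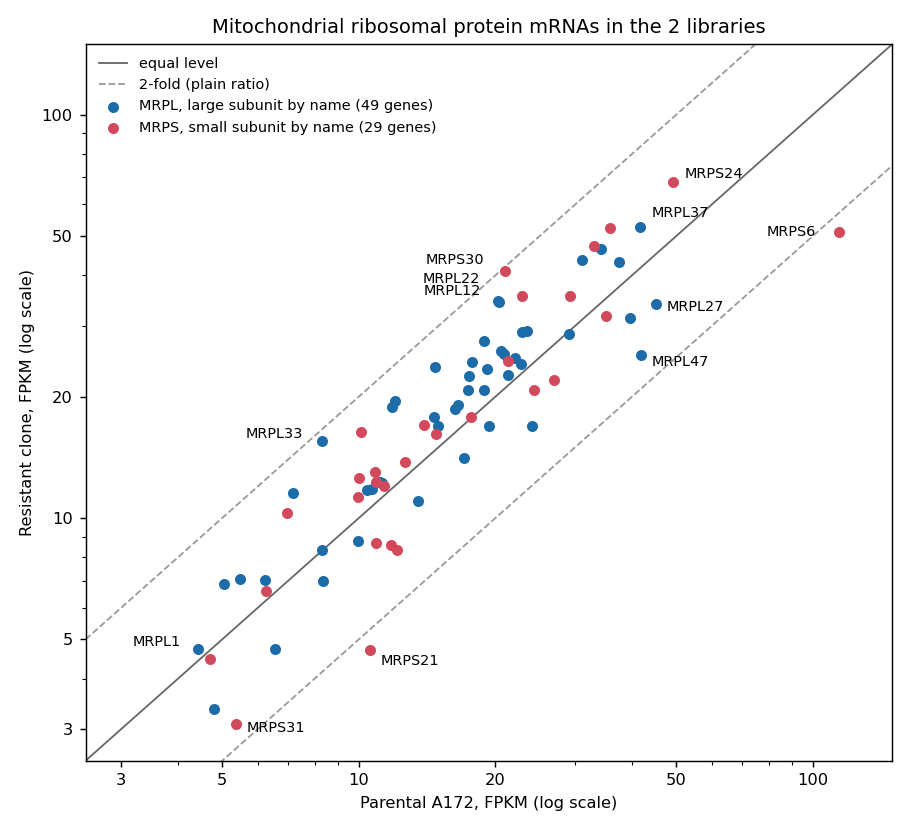
Level of each mitochondrial ribosomal protein mRNA in the parental library (x axis, FPKM, log scale) and in the resistant library (y axis, FPKM, log scale), with 1 point per gene, blue for the 49 MRPL and red for the 29 MRPS genes, and dashed lines at a plain ratio of 2. Most points sit just above the line of equal level, and MRPS6 (115 and 51.3 FPKM) and MRPS21 (10.6 and 4.70) lie beyond the lower dashed line.

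The scale of the libraries bears on the count of positive folds. With both libraries set to the same sum of FPKM, 49 of 78 members had a positive fold, beside 45.5% of all compared genes, and the members' median was 0.06 beside -0.06 over all genes. The members' median exceeded that of all genes by 0.12 as deposited and by 0.12 at equal sums. It did so by 0.09 with a filter of 5 FPKM, where 56.7% of compared genes were positive, and by 0.08 with a pseudocount of 10. With both libraries at the same sum 7 members changed sign. Summed over members, the level was 1501 FPKM in parental cells and 1649 in the resistant clone. These sums were 0.501% and 0.509% of all FPKM.

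By name, the large subunit had the higher median, but the 2 subunits overlapped widely. Of the 49 MRPL genes 37 had a positive fold (median 0.19, from -0.70 to 0.83). None was called, where 4.59% of all compared genes were called higher and 3.82% lower. Among the 29 MRPS genes 19 had a positive fold (median 0.12, from -1.14 to 0.93). Of these 29 genes 2 were called lower, 6.90% beside 3.82% of all compared genes. The difference of the medians, large minus small, was 0.07, and 0.02 without members that share exons with a listed gene. The small subunit spread more, with an SD of 0.48 against 0.35. Summed levels were 897 FPKM in the parental library against 1021 in the resistant one for the large subunit, and 604 and 628 for the small one. The small sum rested on MRPS6 and was 490 and 576 FPKM without it. The median of the small subunit without MRPS6 was 0.14.

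Names do not settle the subunit in every case. MRPS30 and MRPS18A carry names of the small subunit but are built into the large one, and MRPS36 belongs to the 2-oxoglutarate dehydrogenase complex rather than the ribosome. With the genes placed by structure, the large subunit had a median of 0.19 over 51 genes and the small one 0.12 over 26. Sums were then 928 and 1073 FPKM for the large subunit and 568 and 571 for the small one, which includes MRPS6 at 115 and 51.3. By name and without MRPS6, the small sum was 17.7% higher in the resistant library, beside 13.8% for the large one. That small sum still counts MRPS30, at 21.0 and 41.0 FPKM, so it gives no order of the subunits by structure. In the large subunit 24 of 30 proteins with a bacterial counterpart had a positive fold (median 0.19), as had 15 of 21 found only in mitochondria (0.16). In the small subunit these counts were 11 of 16 (0.09) and 6 of 10 (0.16). All 4 groups had positive medians as deposited, and their interquartile ranges overlapped. In the group at 0.09, MRPS12, MRPS14 and MRPS28 were at -0.10, -0.03 and -0.03 with the libraries set to equal sums. The middle values of that group were then MRPS28 at -0.03 and MRPS5 at 0.01, so its median was negative. The small subunit by name then had a median of 0.01.

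**Figure D2:**
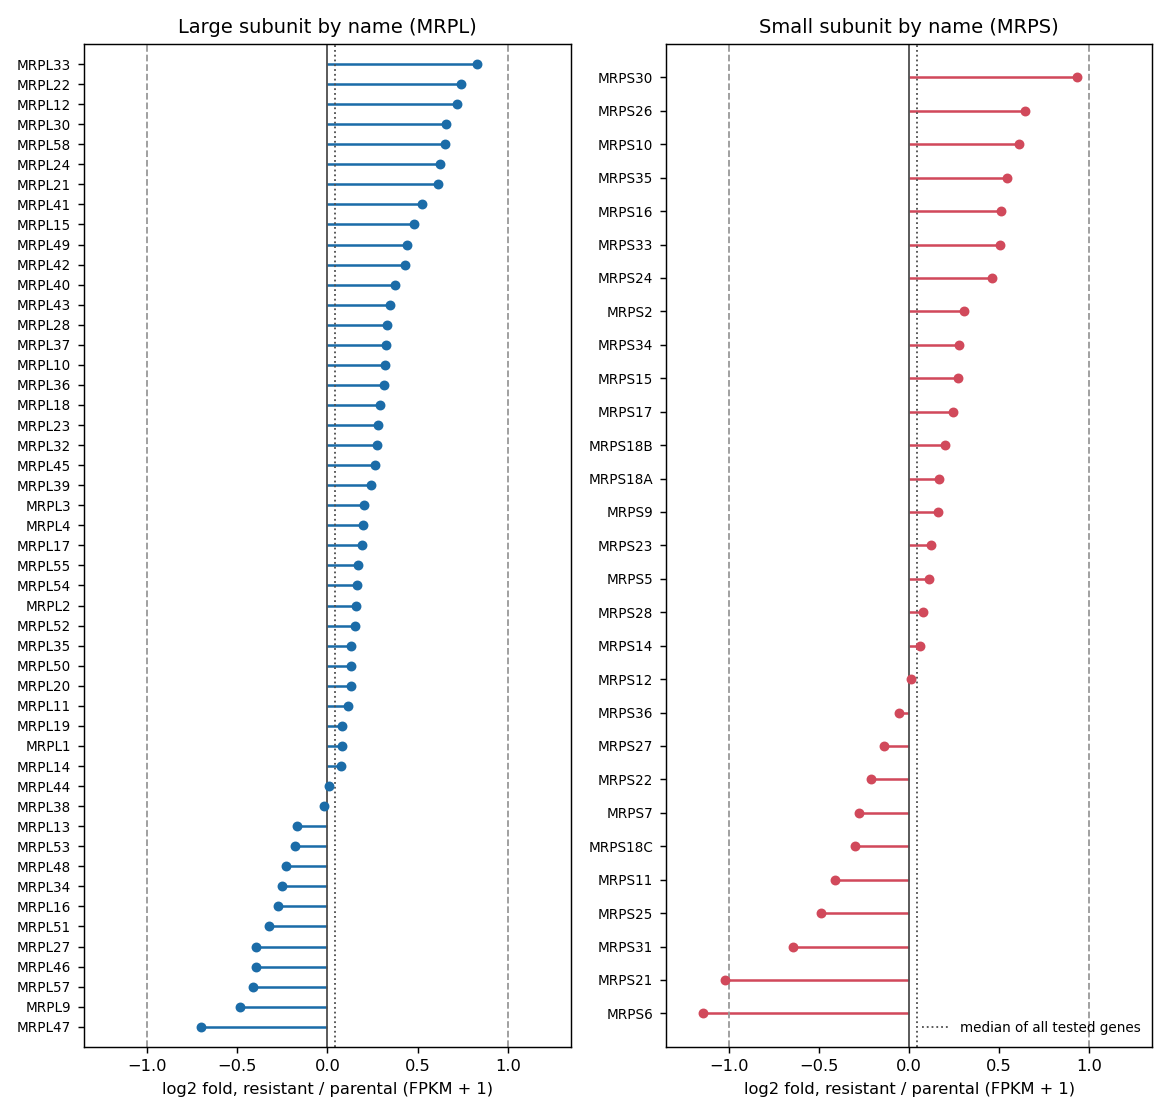
Log2 fold of every member, resistant over parental with 1 FPKM added (x axis), ordered by fold within the MRPL genes (left) and the MRPS genes (right); the dashed lines mark 2-fold and the dotted line the median of all compared genes, 0.04. The MRPS genes reach further in both directions, from -1.14 for MRPS6 to 0.93 for MRPS30, than the MRPL genes, from -0.70 for MRPL47 to 0.83 for MRPL33. This holds by name only: by structure MRPS30 is in the large subunit, and the small one reaches 0.64.

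MRPS6, the mitochondrial counterpart of bacterial ribosomal protein S6, had the largest decrease. Its level was 115 FPKM in parental cells and 51.3 in the resistant clone, a log2 fold of -1.14. It was the most abundant member in the parental library and ranked 4 in the resistant one. The gene (ENSG00000243927) lies on the plus strand of chromosome 21 from 34073224 to 34143034 in GRCh38. It shares 273 exonic bases, 6.35% of its own, with SLC5A3 on the same strand, which encodes a sodium and myo-inositol transporter. SLC5A3 was lower as well, at 57.6 and 18.7 FPKM (-1.58), so fragments from the shared exon could belong to either gene. The neighbouring long noncoding RNA LINC00310 had 5.27 and 1.52 FPKM (-1.31). On the other side ATP5O, a subunit of ATP synthase, had 82.9 and 62.6 FPKM (-0.40). The 20 nearest compared genes, the 10 before and the 10 after it in order of start, had a median of -0.24. GENCODE names 2 pseudogenes after MRPS6. In RefSeq (GRCh38.p14) MRPS6 and SLC5A3 have the same first promoter window, 250 bases before to 50 bases after the start. It is shown because both genes start from it, at chr21:34073328-34073627 on the plus strand, with capitals for the GC box letters GGGCGG on either strand.
MRPS6: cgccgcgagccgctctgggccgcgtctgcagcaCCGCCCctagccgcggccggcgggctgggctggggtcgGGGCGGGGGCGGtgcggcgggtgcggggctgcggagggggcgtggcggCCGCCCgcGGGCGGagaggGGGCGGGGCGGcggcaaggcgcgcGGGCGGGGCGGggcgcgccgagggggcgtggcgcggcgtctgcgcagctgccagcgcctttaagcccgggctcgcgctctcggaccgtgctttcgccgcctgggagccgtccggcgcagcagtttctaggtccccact

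MRPS21, the counterpart of bacterial S21 in the small subunit, was the other member called lower. It had 10.6 FPKM in the parental library against 4.70 in the resistant one, a log2 fold of -1.02, at the edge of the threshold. With a pseudocount of 10 it was -0.48 and no longer called. The gene (ENSG00000266472) lies on chromosome 1 from 150293720 to 150308979. No listed gene shares its exons, but GENCODE names 8 pseudogenes after it, the most of any member, and reads from such copies cannot be told apart with certainty. Its neighbours moved less, with CIART at 6.55 and 8.24 FPKM (0.29) and PRPF3 at 55.4 and 48.5 (-0.19), and the 20 nearest genes had a median of -0.22. MRPS6 had a q-value of 0.0472 in the authors' deposited table, and MRPS21 one of 0.290. MRPS6 was the only member under 0.05 there, where 3.98% of all listed genes were lower and 5.13% higher with such a q-value. The deposited p-values and q-values come from 1 library per group, so they measure no spread between cultures. The promoter window of MRPS21, at chr1:150293611-150293910 on the plus strand, is shown because it holds the ETS letters CCGGAAG, in capitals as they read on the other strand, on both sides of the start.
MRPS21: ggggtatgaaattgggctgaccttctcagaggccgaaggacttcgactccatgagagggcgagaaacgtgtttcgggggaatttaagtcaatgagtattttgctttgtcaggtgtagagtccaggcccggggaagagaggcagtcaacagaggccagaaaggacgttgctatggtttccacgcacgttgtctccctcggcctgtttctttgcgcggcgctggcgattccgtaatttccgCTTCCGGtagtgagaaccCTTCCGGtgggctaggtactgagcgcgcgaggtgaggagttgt

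Next in order of decrease came members from both subunits, none of them called. MRPL47, which sits at the exit of the peptide tunnel, had 41.8 FPKM in parental cells and 25.3 in the resistant clone (log2 fold -0.70). MRPS31, a protein of the small subunit found only in mitochondria, had 5.36 and 3.08 (-0.64), and 4 pseudogenes are named after it. The level of MRPS25, also a protein without a bacterial counterpart, was 12.1 and 8.35 FPKM (-0.49). MRPL9 had 24.1 and 16.9 (-0.48). Of these 4, MRPL47 and MRPS31 passed 1.5-fold. MRPS11 and MRPL57, at 11.8 and 8.58 FPKM and at 4.79 and 3.35, both had a log2 fold of -0.41.

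MRPS30 had the largest increase, just under the threshold. Its level was 21.0 FPKM in the parental library against 41.0 in the resistant one, a log2 fold of 0.93 and a plain ratio of 1.95. The gene (ENSG00000112996) lies on chromosome 5 from 44808925 to 44820428, and its product is a part of the large subunit found only in mitochondria. RP11-53O19.1, which GENCODE places on the other strand before it, was at 2.60 and 1.41 FPKM (-0.58). The p-value of MRPS30 in the authors' deposited table was 0.0101 and its q-value 0.0857. The window of MRPS30, at chr5:44808697-44808996 on the plus strand, is shown for the YY1 letters AAGATGGC in capitals just after the start.
MRPS30: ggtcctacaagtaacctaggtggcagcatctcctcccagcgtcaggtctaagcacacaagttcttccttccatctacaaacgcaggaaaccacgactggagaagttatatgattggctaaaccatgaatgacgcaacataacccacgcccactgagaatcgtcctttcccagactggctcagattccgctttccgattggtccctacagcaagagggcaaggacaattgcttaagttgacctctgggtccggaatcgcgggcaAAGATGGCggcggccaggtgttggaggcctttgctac

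Of the 10 members higher by 1.5-fold, 7 were MRPL and 3 MRPS genes, beside 49 and 29 of all members. MRPL33 had 8.29 FPKM in parental cells and 15.5 in the resistant clone (log2 fold 0.83). It shares 324 exonic bases, 21.1% of its own, with BRE on the same strand, which had 28.3 and 21.6 FPKM (-0.38). MRPL22, which lines the peptide tunnel, had 20.3 and 34.6 (0.74). The stalk protein MRPL12, which helps bring translation factors to the ribosome, had 20.4 and 34.3 (0.72). MRPL30 was at 12.04 and 19.5 FPKM (0.66). MRPL58, a peptidyl-tRNA hydrolase that became part of the large subunit and acts on stalled ribosomes, had 14.7 and 23.7 (0.65). In the small subunit MRPS26 had 10.1 and 16.3 FPKM (0.64). MRPL24 at the tunnel exit had 11.8 and 18.8 (0.63). Across the authors' deposited table, 3 members had a p-value under 0.05, MRPS6, MRPS30 and MRPL22, beside 21.2% of all listed genes in either direction.

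Within the large subunit, folds were compared by the site where a protein sits. All 4 stalk proteins had positive folds as deposited, but MRPL1 was at -0.01 with the libraries set to equal sums and at -0.06 with its chromosome's median subtracted, and MRPL1 and MRPL11 were at -0.37 and -0.05 with the neighbours' median subtracted. MRPL12 led them, and MRPL10, which anchors it, had 20.6 FPKM in the parental library against 25.9 in the resistant one (0.32). MRPL11 had 11.2 and 12.2 (0.11), and MRPL1, of the stalk at the other side, 4.42 and 4.73 (0.08). Around the tunnel exit 7 of 8 were positive as deposited (median 0.25), MRPL47 being the exception. MRPL45, which faces the inner membrane, had 14.7 and 17.8 FPKM (0.26). MRPL44, also at this site, was at 0.01 as deposited. It was at -0.09 with the libraries set to equal sums and at -0.13 with the neighbours' median subtracted. In the central protuberance, where the large subunit faces the head of the small one, 5 of 9 were positive (median 0.15), from MRPL58 at 0.65 to MRPL46 at -0.40.

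The 3 proteins related to bacterial S18 did not share a direction. MRPS18A of the large subunit had 9.94 FPKM in parental cells and 11.3 in the resistant clone (0.16). MRPS18B had 21.3 and 24.6 (0.20). MRPS18C, which takes the place of S18 itself, had 10.9 and 8.68 (-0.30), and 40.2% of its exonic bases lie opposite those of FAM175A, which had 3.94 and 4.92 (0.26). Among the other members fixed for their roles, MRPS12 of the decoding site had 17.7 and 17.8 FPKM (0.01), MRPS17 had 10.9 and 13.04 (0.24), and MRPS36 had 4.70 and 4.48 (-0.06).

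Levels differed far more between members than between libraries, although the ribosome holds 1 copy of most of them. The highest level was 25.9 times the lowest in the parental and 22.1 times in the resistant library. After MRPS6, the most abundant members by mean level were MRPS24 (49.4 FPKM in the parental library against 68.2 in the resistant one), MRPL37 (41.8 and 52.6), MRPS35 (35.7 and 52.5) and MRPL3 (37.4 and 43.2). MRPS24 ranked 1 in the resistant library. The least abundant by mean level were MRPL57, MRPS31 and MRPL1, with means of 4.07, 4.22 and 4.58 FPKM. Medians were 17.4 and 19.5 FPKM for the large subunit by name and 12.7 and 16.2 for the small one. The order of levels was largely shared, with Spearman's rho of 0.92 and Pearson's r of 0.90 on log2(FPKM + 1) across the 78 genes, which are not independent replicates and share the gene models behind both columns. Fold had little relation to transcript length (rho -0.08) or GC content (rho 0.20) across the members. With mean level its rho was 0.28 over all members, 0.19 in the large and 0.38 in the small subunit by name.

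The members lie on 21 chromosomes, and their folds were set beside those of the other genes there; DNA copy number was not measured. On the 6 chromosomes where all compared genes had a median below 0, 14 of 26 members had a positive and 12 a negative fold. On the 15 chromosomes with a median above 0, 42 members had a positive and 10 a negative fold. Chromosomes 13, 3 and 15 had the lowest medians, -0.23, -0.17 and -0.12, and 7 of their 8 members had a negative fold, MRPL3 on chromosome 3 at 37.4 and 43.2 FPKM (0.20) being the exception. The highest medians were those of chromosomes 7 (0.15), 4 (0.14) and 20 (0.14). All 4 members on chromosome 7 had a positive fold, as had MRPS26, the 1 member on chromosome 20, while on chromosome 4 MRPL1 was positive and MRPS18C negative. Neighbours were 10 compared genes on each side in order of start, and fewer near chromosome ends, 19 for MRPL28 and 15 for MRPL41. Across the 78 members, fold and the median fold of these nearest compared genes had a Pearson's r of 0.60 and a rho of 0.51. Over 13886 compared genes with a position the same r was 0.22, and neighbouring genes share chromosome and in part exons. These 13886 include genes at lower levels than any member, and no set of like level was compared. With the neighbours' median subtracted, the members' median fold was 0.09 beside 0.16 as deposited, and no member reached 2-fold. MRPS6 was then at -0.90, MRPS21 at -0.80 and MRPS30 at 0.80. The chromosomes named were picked after their medians were seen.

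**Figure D3:**
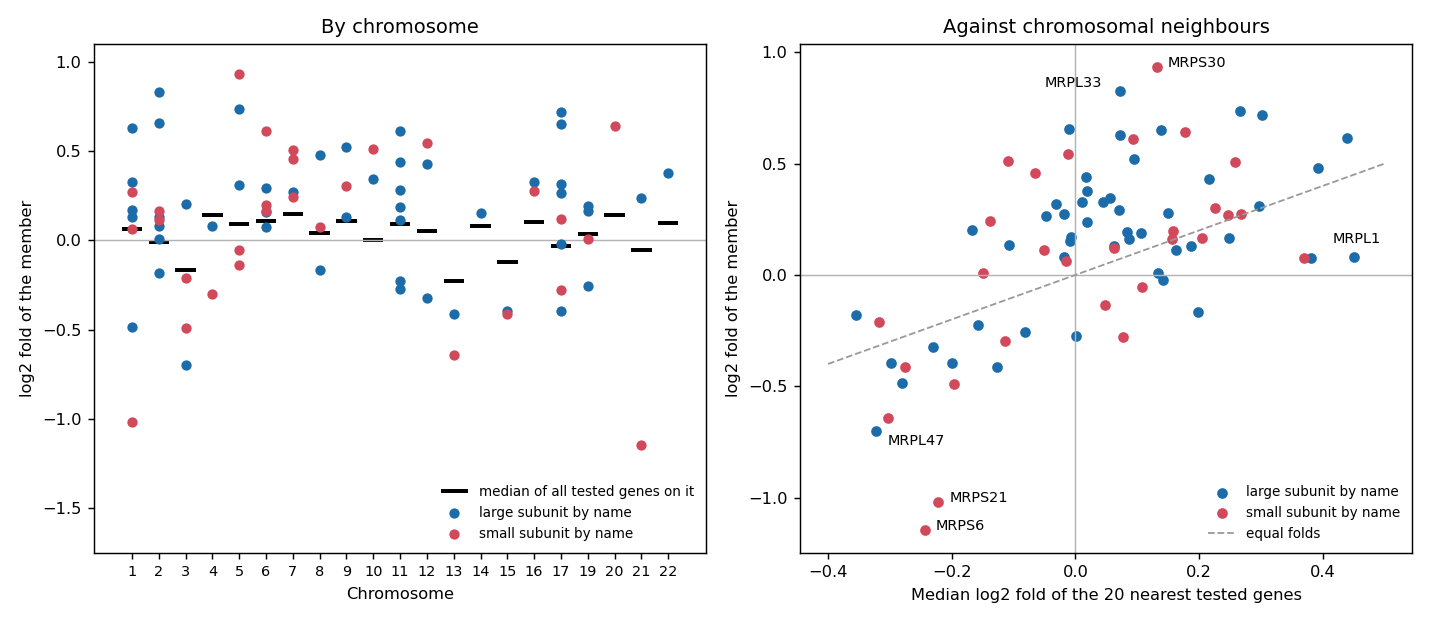
Left, log2 fold of each member (y axis) by chromosome (x axis), with a black bar for the median of all compared genes on that chromosome. Right, the same folds (y axis) against the median log2 fold of the nearest compared genes, up to 20 (x axis), with a dashed line of equal folds. Members on chromosomes 3, 13 and 15 lie mostly below 0 (7 of 8), and MRPS6 and MRPS21 lie far below their neighbours' medians of -0.24 and -0.22.

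Several members share a start region with a gene on the other strand. For 16 pairs of a member and a protein-coding gene, counted once each, the starts in GENCODE lay within 1000 bases, pointing apart with no shared exon. In 10 of these pairs both genes had the same sign of fold, 7 higher and 3 lower, and in 6 the signs differed, where 71.8% of members and 53.3% of all compared genes were positive. MRPL46 of the central protuberance and MRPS11 of the small subunit form such a pair on chromosome 15, with starts 34 bases apart in GENCODE and 320 in RefSeq. MRPL46 had 6.55 FPKM in parental cells and 4.73 in the resistant clone (-0.40), and MRPS11 had 11.8 and 8.58 (-0.41). MRPL47 is paired with NDUFB5, a subunit of respiratory complex I, which had 80.4 and 46.6 FPKM (-0.77). MRPL30 is paired with MITD1, at 8.49 and 15.9 (0.83). MRPL27, whose partner EME1 is a DNA nuclease subunit, had 45.1 and 34.0 FPKM (-0.40), and EME1 6.01 and 3.93 (-0.51). Examples of the 6 pairs of opposite sign follow. MRPL32 had 20.9 and 25.5 FPKM (0.27) and its partner RP11-111K18.1 5.14 and 0.000824 (-2.62). MRPL41 had 18.8 and 27.5 (0.52) and its partner PNPLA7 1.76 and 0.939 (-0.51). MRPS18C, lower itself, is paired with the helicase HELQ, at 2.59 and 3.58 (0.35). Across the 16 pairs the Pearson's r of the folds was 0.14, and partners share their place in the genome.

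The RefSeq window of MRPL46, at chr15:88467339-88467638 on the minus strand, is shown because it overlaps that of MRPS11 by 181 bases. Capitals mark the YY1 letters AAGATGGC.
MRPL46: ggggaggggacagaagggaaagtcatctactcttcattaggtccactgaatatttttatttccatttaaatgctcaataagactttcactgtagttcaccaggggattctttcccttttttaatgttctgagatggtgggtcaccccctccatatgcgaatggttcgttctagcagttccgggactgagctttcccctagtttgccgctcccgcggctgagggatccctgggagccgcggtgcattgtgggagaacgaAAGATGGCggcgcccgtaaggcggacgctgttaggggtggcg

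Promoter letters were counted in the first RefSeq window of each gene, for 69 members whose symbols matched. The motifs were chosen as textbook sites of factors tied to mitochondrial genes and were searched on both strands. The ETS letters CCGGAAG, a core bound by factors such as GABPA, were found in 29 of the 69 (42.0%), beside 10.7% of all 27305 genes in the table and 19.9% of the 9564 compared ones. AAGATGGC, a YY1 site, occurred in 20 (28.99%), beside 3.03% and 5.66%, and in the printed windows of MRPS30 and MRPL46 it lies just after the start. The NRF1 motif was in 8 (11.6%, beside 6.28% and 12.2%). The E-box CACGTG was in 6 (8.70%, beside 7.43% and 10.4%) and the GC box GGGCGG in 42 (60.9%, beside 44.6% and 70.3%). ETS letters were in 40.5% of large and 44.4% of small subunit windows, and YY1 letters in 28.6% and 29.6%. Median folds of members with and without the letters were 0.15 and 0.19 for ETS, 0.16 and 0.17 for YY1, 0.23 and 0.16 for NRF1, 0.32 and 0.16 for the E-box, and 0.22 and 0.12 for the GC box, and these differences were not tested. The letters that were most frequent were present in members of both subunits. A match is a description of the sequence, and binding was not measured.

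**Figure D4:**
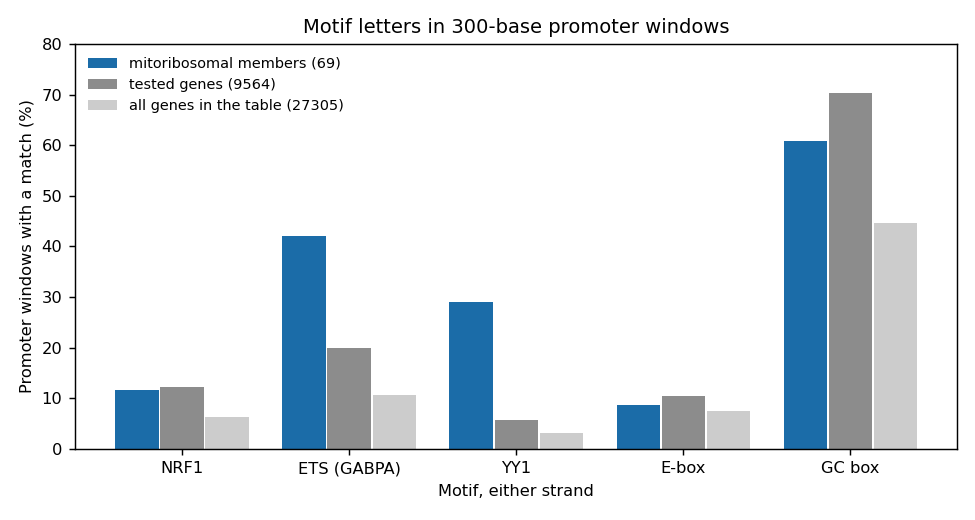
Share of 300-base promoter windows (y axis, percent) holding each motif on either strand (x axis), for 69 members, 9564 compared genes and all 27305 genes of the table. The ETS bar of the members stands at 42.0% and the YY1 bar at 28.99%, above both other groups, while the NRF1 and E-box bars lie close to those of the compared genes.

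Genes that build and serve the mitochondrial ribosome were set beside the members, and the differences between these lists were not tested. The 5 mitoribosome proteins with other names had a median log2 fold of 0.10. None was called, where 4.59% of all compared genes were called higher and 3.82% lower. DAP3 had 54.3 FPKM in the parental library against 58.4 in the resistant one (0.10), PTCD3 36.7 and 32.6 (-0.17), AURKAIP1 17.9 and 23.3 (0.36), GADD45GIP1 7.56 and 8.18 (0.10), and CHCHD1 6.26 and 6.20 (-0.01). Of 24 assembly factors 20 had a positive fold (median 0.26). None was called higher, where 4.59% of all compared genes were. The 1 called lower was MTG1, a GTPase of large subunit assembly, at 11.2 and 4.88 FPKM (-1.06). That is 4.17% of the list beside 3.82% of all compared genes. The rRNA endonuclease YBEY had 3.35 and 7.25 (0.92), the helicase DDX28 2.59 and 5.15 (0.78), and the RNA-binding protein FASTKD2 17.0 and 29.2 (0.75). Of 17 translation factors 13 were positive (median 0.25), and 1 was called higher, 5.88% beside 4.59% of all compared genes. None was called lower, where 3.82% of all compared genes were. The one called was RMND1, which is needed for mitochondrial translation, at 9.45 and 20.2 FPKM (1.02). The release factor MTRF1 had 7.36 and 4.28 (-0.66), the COX1 translation activator TACO1 10.7 and 15.7 (0.51), and LRPPRC, which stabilises mitochondrial mRNAs, 41.2 and 57.4 (0.47).

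Products and regulators of this system were set beside it. The 13 listed mitochondrially encoded genes, which these ribosomes translate, had a median of 0.19. None of the 13 was called, where 4.59% of all compared genes were called higher and 3.82% lower. Their summed level went the other way, at 4785 and 4588 FPKM, or 1.60% and 1.42% of the library, with MT-CO1, the most abundant, at 2119 and 1654 (-0.36). MT-ND3 had 17.5 FPKM in parental cells and 32.7 in the resistant clone (0.86), and MT-ND4 299 and 387 (0.37). MT-ND4L had 77.7 and 129 (0.72) and MT-ND6 141 and 97.7 (-0.53). Of 12 regulators of mitochondrial biogenesis 10 were positive (median 0.34). MYC was called higher, at 4.99 and 26.2 FPKM (2.18), which is 8.33% of the list beside 4.59% of all compared genes. None was called lower, where 3.82% of all compared genes were. The coactivator PPARGC1A had 1.64 and 0.499 (-0.82), the mitochondrial RNA polymerase POLRMT 14.9 and 23.2 (0.61), and the receptor ESRRA 4.58 and 7.10 (0.54).

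The members lay between the other large groups of translation and respiration genes. Cytosolic ribosomal proteins, 78 by name, had a median log2 fold of 0.37, with 71 positive. Of these 78 genes 3 were called higher (3.85% beside 4.59% of all compared genes). None was called lower, where 3.82% of all compared genes were. RPL12 had 104 FPKM in the parental library against 234 in the resistant one, RPS12 47.6 and 102, and RPS2 362 and 754, and processed copies of such genes can share their reads. Nuclear genes of the respiratory chain and ATP synthase, 73 by name, had a median of -0.12, with 29 positive. In this list 1 gene was called higher and 1 lower, 1.37% each, beside 4.59% and 3.82% of all compared genes. Those called were COX6B2, a testis form of a complex IV subunit, at 0.427 and 4.97 FPKM, and NDUFB4 of complex I, at 21.1 and 8.21. With the libraries set to equal sums, the medians were 0.26 for the cytosolic ribosome, 0.06 for the members and -0.23 for the respiratory chain, in the same order. With 1 library per group these differences between groups of genes were not tested.

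**Figure D5:**
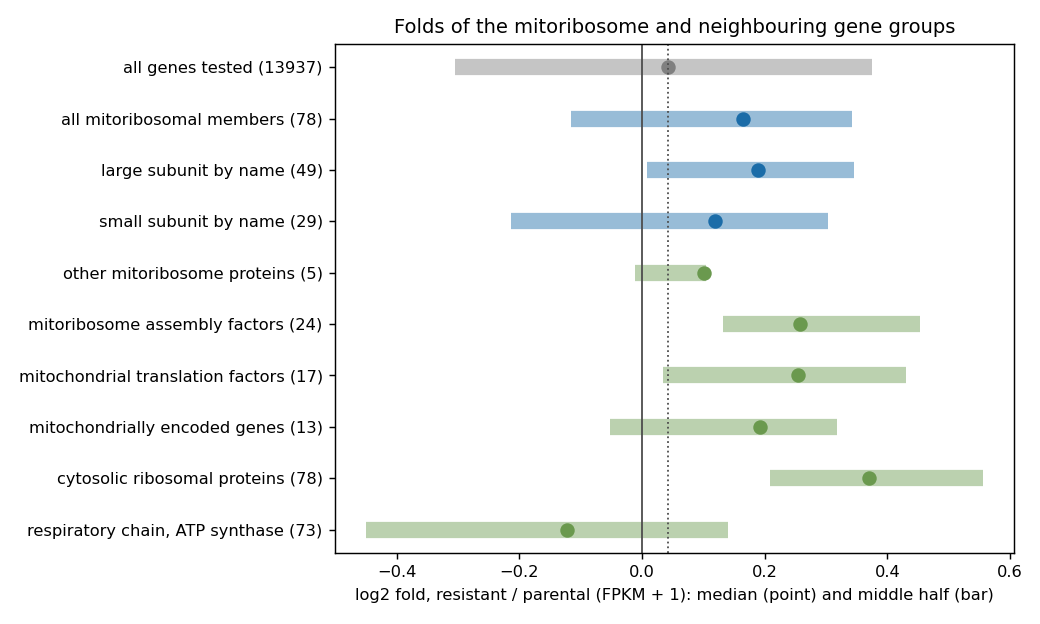
Median log2 fold (points) and interquartile range of the folds (bars) for all compared genes, the members, the 2 subunits by name, and other groups of mitochondrial and ribosomal genes (y axis, with the number of genes); the x axis is log2 fold with 1 FPKM added. The members' median of 0.16 lies between that of cytosolic ribosomal proteins, 0.37, and that of the respiratory chain, -0.12.

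Shared exons limit single values. By the GENCODE models, 29 of the 78 members share exonic bases with another listed gene, 8 of them on the same strand, and the use of strand in counting is not given in the sources used here. Members without such overlap, 49 in all, had a median log2 fold of 0.20, with 39 positive. MRPS21 was the only one of them called lower, 2.04% beside 3.82% of all compared genes. Those with overlap had a median of 0.08, with 17 of 29 positive. Pseudogenes named after a member exist in GENCODE for 34 of the 78.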

How the data were processed

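RNA sequencing of 2 libraries, 1 parental and 1 resistant, was used as the authors deposited it. Per the file headers the values are FPKM, with the authors' log2 ratio, p-values and q-values of their own comparison beside them. For the aligner, counter, annotation, test and genome build, the entry is: not given in the sources used here. For all 78 members the deposited log2 ratio equalled log2 of the FPKM ratio within 0.001. Depth cannot be read from FPKM, so no counting interval is given.

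From the FPKM, log2((resistant + 1)/(parental + 1)) was computed for genes that reached 1 FPKM in at least 1 library and called at 2-fold, with Python 3.11.15, pandas 2.3.3 and SciPy 1.17.1. The fold calculation was checked on simulated data, with planted folds only in genes at higher levels and none at the 2-fold threshold. That check does not bear on calls near the threshold, such as that of MRPS21. Coordinates, exon overlaps and pseudogene names came from GENCODE release 29 (GRCh38). The loci deposited for 77 of the 78 members contained the GENCODE gene. Promoter windows came from RefSeq (GRCh38.p14).

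Named genes were the members called, the 8 highest and 8 lowest folds, the 5 most and 3 least abundant, members fixed for their roles, and up to 4 genes of each other list with the largest folds, or all in lists of 6 or fewer. Neighbours, partners, overlapping genes and any other gene, such as MRPL27, MRPL46 and MT-CO1, were chosen after their values were seen. The members and lists were chosen with earlier results of these data known. Alternatives covered pseudocount, scaling, filter, threshold, overlap and chromosome.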

Additional observations from a re-analysis of the deposited data

How the results depend on the processing

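No called fold changed sign. Without members sharing exons, the difference of the subunit medians, large minus small, was 0.0226, beside 0.07 for all members and 0.0486 without MRPS6. With both libraries scaled to the same sum, the median log2 fold was 0.0592 over all members, 0.0825 for the large and 0.0134 for the small subunit, the log2 ratio of summed levels 0.0225 (0.14 as deposited), and the median over assembly, translation and biogenesis genes with other mitoribosome proteins 0.16. That last median was 0.14 with a pseudocount of 10. The count of members called lower was 1 with a pseudocount of 10, which ended the call of MRPS21, without members sharing exons, without same-strand sharers, without MRPS6, and at the authors' q-value under 0.05. It was 0 with the neighbours' median subtracted, 4 at 1.5-fold and 0 at 4-fold, and 10 members were higher at 1.5-fold. Of all compared genes 0.42% were called lower with a pseudocount of 10, so 1 of 78 members lay above that share. At 1.5-fold 12% of all compared genes were lower and 14.5% higher, and 3.98% of listed genes were lower at the authors' q-value under 0.05. Without members sharing exons, the log2 ratio of summed levels was 0.29 and 10 members had a negative fold. Leaving out same-strand sharers or MRPS6, the plain ratio, and the settings for the other lists and for negative folds were chosen after seeing the data. Pseudocounts do not apply to summed levels. No paired analysis was possible because each group holds 1 library. Moves under 0.1 on the log2 scale are not listed; that tolerance is no replicate spread and shows no stability.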
